A study of Mus musculus with 4 samples.

Results

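Cytosolic ribosomal protein genes were followed in chromatin accessibility maps of tumour-elicited myeloid cells. The genes were chosen by name from the mouse RefSeq annotation (GRCm38.p6, the assembly of the mm10 coordinates used by the authors): protein-coding autosomal genes with an Rpl or Rps symbol and a number, with or without a final a, x or l, together with Rplp0, Rplp1, Rplp2 and Rpsa. The rule gave 77 genes of 20665 autosomal protein-coding genes, 47 named for the large subunit and 30 for the small subunit. X-linked genes such as Rps4x were outside it. The paralogues Rpl3l, Rpl10l, Rpl39l and Rps27l were inside it.

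The libraries came from Sphk2 KO mice (2 libraries, replicates 1 and 2) and WT mice (2 libraries, replicates 1 and 2). Sphk2 encodes sphingosine kinase 2, and the labels do not say which allele was used, which exons it lacks or what age and strain the mice had. All mice had received EL4 cells, a mouse T lymphoma line, and 14 days later myeloid-derived suppressor cells positive for Gr1 and CD11b were sorted from the ascites. In ATAC-seq the Tn5 transposase cuts accessible DNA, and each library started from 20000 sorted cells. The labels call the libraries biological replicates without tying them to animals, so the spread given here is that between libraries.

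Ribosomal proteins are the protein part of the cytosolic ribosome, and their genes are among the most constantly transcribed housekeeping genes. Their promoters usually lack a classical TATA box, often hold motifs of ETS-family factors, SP1 or YY1, and start transcription at a cytosine within a pyrimidine stretch. That stretch becomes the 5′ terminal oligopyrimidine tract, or TOP, through which mTOR signalling controls translation of the mRNA. Myeloid cells, like other cells, make these mRNAs, whose levels were not measured here.

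The promoter sequences below show the range met among the genes. Rpl18 overlaps Sphk2. The gene-end peaks of Rpl14 and Rps6 had ranks that did not overlap between the genotypes, as did 40.1% of all ranked genes. By −log10 q, the peaks of Rps19 and Rpl13a ranked among the strongest and that of Rpl6 was the weakest. Each sequence, from RefSeq (GRCm38.p6), runs 5′ to 3′ on the strand of the gene. It goes from 100 bases before the annotated start through the first 25 bases of the transcript. Capitals mark matches, on either strand, to the ETS core CCGGAA or the SP1 box GGGCGG.
Rpl18, chr7:45717971-45718095, plus strand: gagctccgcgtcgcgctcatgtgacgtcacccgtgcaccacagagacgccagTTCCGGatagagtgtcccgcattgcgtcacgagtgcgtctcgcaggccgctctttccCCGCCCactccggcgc
Rps19, chr7:24884492-24884616, plus strand: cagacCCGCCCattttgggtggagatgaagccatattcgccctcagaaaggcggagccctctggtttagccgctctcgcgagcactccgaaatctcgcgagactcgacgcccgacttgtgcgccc
Rpl13a, chr7:45128721-45128845, minus strand: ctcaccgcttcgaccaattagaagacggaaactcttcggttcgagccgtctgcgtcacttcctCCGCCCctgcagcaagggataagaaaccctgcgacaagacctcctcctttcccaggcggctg
Rpl14, chr9:120571417-120571541, plus strand: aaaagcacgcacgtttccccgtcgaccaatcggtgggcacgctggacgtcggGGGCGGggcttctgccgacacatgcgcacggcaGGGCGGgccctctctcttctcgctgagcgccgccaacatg
Rps6, chr4:86857343-86857467, minus strand: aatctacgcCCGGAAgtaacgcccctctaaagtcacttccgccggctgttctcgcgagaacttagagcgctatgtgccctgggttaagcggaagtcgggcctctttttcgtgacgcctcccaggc
Rpl6, chr5:121204401-121204525, plus strand: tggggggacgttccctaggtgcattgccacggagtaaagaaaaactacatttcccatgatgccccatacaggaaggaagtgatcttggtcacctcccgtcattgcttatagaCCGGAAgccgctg

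RefSeq promoter windows, from 250 bases before to 50 after the start, were at hand for 57 of the 77 genes and for 16457 genes in all. Where a gene had several annotated starts, the one nearest its mean start-site summit in these libraries was used. The first listed start was used where no library had a peak. The ETS core CCGGAA was present in 27 of the 57 windows (47.4%), against 19.9% of all windows and 33.7% of the windows of 7509 genes with a start-site peak in all 4 libraries. The SP1 box GGGCGG was present in 33 (57.9%), against 48.2% of all windows and 69.8% of the accessible ones. The YY1 motif AAGATGGC was found in 4 windows (7.02%), against 3.28% of all and 5.58% of accessible windows. TATAAA was also found in 4 (7.02%), against 13.3% of all and 5.87% of accessible windows. The E-box CACGTG was found in 5 (8.77%), against 8.02% of all and 11.1% of accessible windows. The palindromic NRF1 motif was found in 4 (7.02%), against 7.02% of all and 13.0% of accessible windows. Both strands were searched, overlapping matches of different motifs were allowed, and a match is a run of letters, not evidence of a bound factor.

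Terminal pyrimidine tracts were more frequent in these windows than in others. A cytosine at or next to the annotated start followed by at least 4 pyrimidines occurred in 19 of 57 windows (33.3%), against 6.34% of all windows and 7.10% of accessible ones. A looser form, a cytosine with 5 or more pyrimidines after it anywhere in the first 50 transcribed bases, was added after the sequences were seen. It occurred in 44 of 57 windows (77.2%), against 33.1% of all and 29.1% of accessible windows. The 30 bases around the annotated start, from 10 before to 20 after it, are shown for 3 genes with a tract, which stands in capitals.
Rpl18: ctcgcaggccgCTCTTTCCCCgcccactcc
Rpl14: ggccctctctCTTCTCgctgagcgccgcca
Rps6: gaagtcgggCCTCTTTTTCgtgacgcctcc

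The windows of the genes were no richer in G and C than others: their median GC content was 56.7%, against 57% over all windows. Among genes with a start-site peak in all libraries it was 58.3% for ribosomal protein genes and 62% for all genes. In 50 of the 57 genes, the printed stretch of 125 bases lay wholly inside a peak in every library. Rpl6, printed above, was not one of them, since its peak covered the stretch in 1 library.

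The number of fragments kept was 25877428 and 27686223 in Sphk2 KO replicates 1 and 2, against 33859480 and 34443062 in WT replicates 1 and 2. The authors' lists held 20759 and 27446 peaks in the Sphk2 KO libraries and 31507 and 31843 in the WT libraries, and the median fold enrichment of a peak over its local background was 6.03 and 6.01 in Sphk2 KO, against 5.19 and 5.11 in WT libraries. Depth and enrichment thus moved with genotype, and their effect on presence calls cannot be told apart from that of genotype. Of 10 marker genes of Gr1+CD11b+ cells, 7 and 8 had a peak at a gene end in the Sphk2 KO libraries and 9 and 8 in the WT libraries, with S100a8, S100a9 and Itgam (CD11b) in all 4 and Ly6g in none. Of 10 T cell or EL4 markers, 3 and 3 had one in Sphk2 KO and 3 and 4 in WT libraries, Cd3d and Cd5 in all 4, while the 6 B cell markers had none. Of 3 erythroid markers, Klf1 alone had one, in all 4 libraries. Genes with a gene-end peak in all 4 libraries were also ranked by −log10 q, with 100 the strongest. The 7 ranked myeloid markers stood low, with median percentiles of 20.6 and 19.9 in Sphk2 KO and 14.5 and 15.6 in WT libraries. The 2 ranked T cell or EL4 markers stood higher, with 63.2 and 58.4 in Sphk2 KO and 52.2 and 54.0 in WT libraries. Over all 20665 genes, 9099 and 10095 had a gene-end peak in Sphk2 KO and 10239 and 10427 in WT libraries, and 43.1% in all 4. The part of other cells in the results was not tested, and in a bulk sort fewer accessible cells and less access per cell cannot be told apart.

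Nearly every ribosomal protein gene had accessible chromatin at a gene end. A peak lay within 1000 bp of either end of 69 and 69 of the 77 genes in Sphk2 KO replicates 1 and 2, and of 70 and 69 genes in WT replicates 1 and 2. Of the 77 genes, 68 (88.3%) had such a peak in all 4 libraries, against 43.1% of all genes. Rpl18 alone had one in both Sphk2 KO libraries and neither WT library, against 0.102% of all genes. Rps27l alone had one in both WT libraries and neither Sphk2 KO library, against 1.31%. The counts were 69, 69, 70 and 69 again when only peaks with a −log10 q of at least 5 were used, and when each list was shortened to its 20759 strongest peaks.

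Most apparent absences came from where the annotated gene ends and not from a lack of a peak. When the whole gene with 1000 bp on each side was searched, 74 of 77 genes (96.1%) had a peak in all 4 libraries, against 50.1% of all genes, and no gene had one in a single genotype alone, against 0.106% of all genes for Sphk2 KO and 2.03% for WT. The 3 genes with none in any library were Rpl10l and Rpl39l, paralogues expressed mainly in testis, and Rpl32l. At the annotated starts, 53 of the 57 genes with an entry (93.0%) had a peak in all 4 libraries, against 45.6% of all genes. The remaining 4 had none in any library: Rpl10l, Rpl32l, Rpl39l and Rpl3l, a paralogue of Rpl3 expressed mainly in striated muscle. No ribosomal protein gene had a start-site peak in the libraries of one genotype alone, against 0.0972% of all genes for Sphk2 KO and 1.32% for WT.

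Rps27l, a p53-inducible paralogue of Rps27, shows how little separated a called gene end from a missed one. Its annotated start lies 1462 bp inside the listed gene, and a peak stood over that start in every library, with a −log10 q of 78.9 and 177 in Sphk2 KO and 146 and 140 in WT replicates 1 and 2. The near edge of that peak was 1070 and 1041 bp from the gene end in the Sphk2 KO libraries and 979 and 996 bp from it in the WT libraries, so the limit of 1000 bp fell between them. Fold enrichment of this peak was 13.12 and 14.86 in Sphk2 KO and 17.64 and 14.96 in WT libraries.

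Rpl22, a large subunit protein with a role in T cell development, repeated the pattern with its start 1290 bp inside the gene. Its peak edge was 1027 and 1173 bp from the gene end in Sphk2 KO libraries and 989 and 1113 bp in WT libraries, so only WT replicate 1 counted. The −log10 q of the peak was 52.5 and 121 in Sphk2 KO and 82.2 and 90.8 in WT libraries. Rps2, at the mRNA entry of the small subunit, and Rpl19, a large subunit protein at a bridge between the subunits, had starts 1942 and 4707 bp inside the gene and were missed in all libraries. Their peaks at the start had a fold enrichment of 8.61 and 10.5 in Sphk2 KO against 10.2 and 9.82 in WT libraries for Rps2, and of 10.8 and 12.9 against 12.1 and 9.90 for Rpl19. Rpl17, near the exit of the nascent peptide, had 1 peak inside the gene in each library, with a fold enrichment of 8.67 and 10.3 in Sphk2 KO and 10.1 and 10.5 in WT libraries.

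Rpl3l illustrates the opposite case. Its gene-end peak, present in all libraries with a fold enrichment of 8.26 and 9.44 in Sphk2 KO and 9.63 and 9.01 in WT libraries, lay at the far end of the gene, and also within 1000 bp of an end of Msrb1, a methionine sulphoxide reductase gene. Of the 68 genes with a gene-end peak everywhere, 19 shared the peak with an end of another protein-coding gene and 49 did not. In 59 of the 68 there was exactly 1 peak at the gene ends in every library. Of the 48 that also had a ranked peak at an annotated start, the strongest gene-end peak was the start-site peak in all libraries for 47, the exception being Rpl4.

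The summits of the start-site peaks sat just upstream of transcription. Over the 53 genes with one in all libraries, the mean summit position had a median of −37.5 bp from the nearest annotated start, with quartiles of −97 and −13 bp. The summit lay within 100 bp of the start in 41 of the 53 genes (77.4%), against 59.6% of the 7509 genes with a start-site peak in all libraries. The median offset over those genes was nearly the same, −38 bp. Summits varied little between libraries, with a median range of 32 bp over the 4 libraries of a gene, and their medians were −44 and −41 bp in the Sphk2 KO and −43 and −41 bp in the WT libraries.

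**Figure D1:**
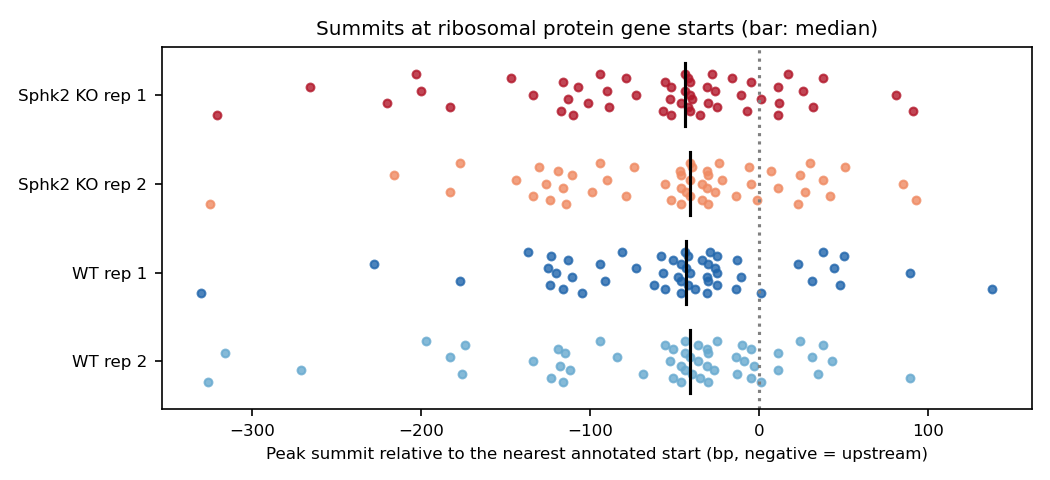
Position of the peak summit relative to the nearest annotated start in bp (x axis, negative values upstream) for ribosomal protein genes with a start-site peak in all libraries, 1 point a gene, 1 row a library, with Sphk2 KO libraries above WT libraries. The black bars are medians, which lie between −44 and −41 bp in all 4 libraries.

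Within each library, the peaks at ribosomal protein genes were stronger than most but no wider. Because lists of different lengths cannot be compared by rank, the 8904 genes with a gene-end peak in all 4 libraries were ranked among themselves by −log10 q, so that 100 is the strongest. The median rank percentile of the 68 ribosomal protein genes was 68.5 and 66.7 in Sphk2 KO and 64.6 and 65.6 in WT replicates 1 and 2. By fold enrichment it was 78.3 and 83.8 in Sphk2 KO and 72.2 and 77.0 in WT libraries, both above the 50 of all genes. Median fold enrichment was 11.3 and 13.2 in Sphk2 KO and 12.1 and 11.7 in WT libraries, while over all 8904 genes it was 8.66 and 10.2 in Sphk2 KO and 10.0 and 9.46 in WT libraries. Median width was 746 and 874 bp in Sphk2 KO and 834 and 922.5 bp in WT libraries, while over all 8904 genes it was 790 and 914 bp in Sphk2 KO and 884 and 943 bp in WT libraries.

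Averaged over the libraries, 24 of the 68 genes (35.3%) ranked in the top 25% and 2 (2.94%) in the bottom 25%, against 24.7% and 24.9% of all ranked genes. Small subunit genes ranked above large subunit genes, with medians of 71.8 and 73.3 in Sphk2 KO and 72.5 and 72.6 in WT libraries for 28 small subunit genes. For 40 large subunit genes the medians were 64.9 and 62.8 in Sphk2 KO and 63.2 and 61.1 in WT libraries. Of the small subunit genes, 14 of 28 were in the top 25%, against 10 of 40 large subunit genes.

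The strongest peak was at Rps19, the small subunit gene most often mutated in Diamond-Blackfan anaemia. It ranked at 99.9 and 99.7 in Sphk2 KO and 99.3 and 99.8 in WT libraries. Rps29, a zinc-binding protein of the small subunit head, had a mean percentile of 96.3 over the 4 libraries. Rpl13a, a large subunit protein which in human monocytes also acts as a translational silencer of inflammatory mRNAs, had a mean percentile of 90.7. By fold enrichment Rpl13a ranked only at 57.7 and 43.3 in Sphk2 KO and 43.5 and 46.3 in WT libraries. Rplp0, the scaffold of the P stalk that recruits elongation factors, ranked at 94.9 and 88.1 in Sphk2 KO and 87.3 and 87.2 in WT libraries. The stalk proteins Rplp1 and Rplp2 lay lower, with mean percentiles of 65.6 and 59.7. Rpsa, a small subunit protein also known as the laminin receptor, had 85.3.

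The weakest peak was at Rpl6, a large subunit protein, which ranked at 11.9 and 9.96 in Sphk2 KO and 4.67 and 18.1 in WT libraries. Rpl37a, a zinc-binding large subunit protein, followed with a mean percentile of 23.2, then Rpl24, at a bridge to the small subunit, with 26.0, and Rpl12, at the base of the stalk, with 28.3. Rpl23a, which sits at the peptide exit and contacts the signal recognition particle, had 29.6.

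**Figure D2:**
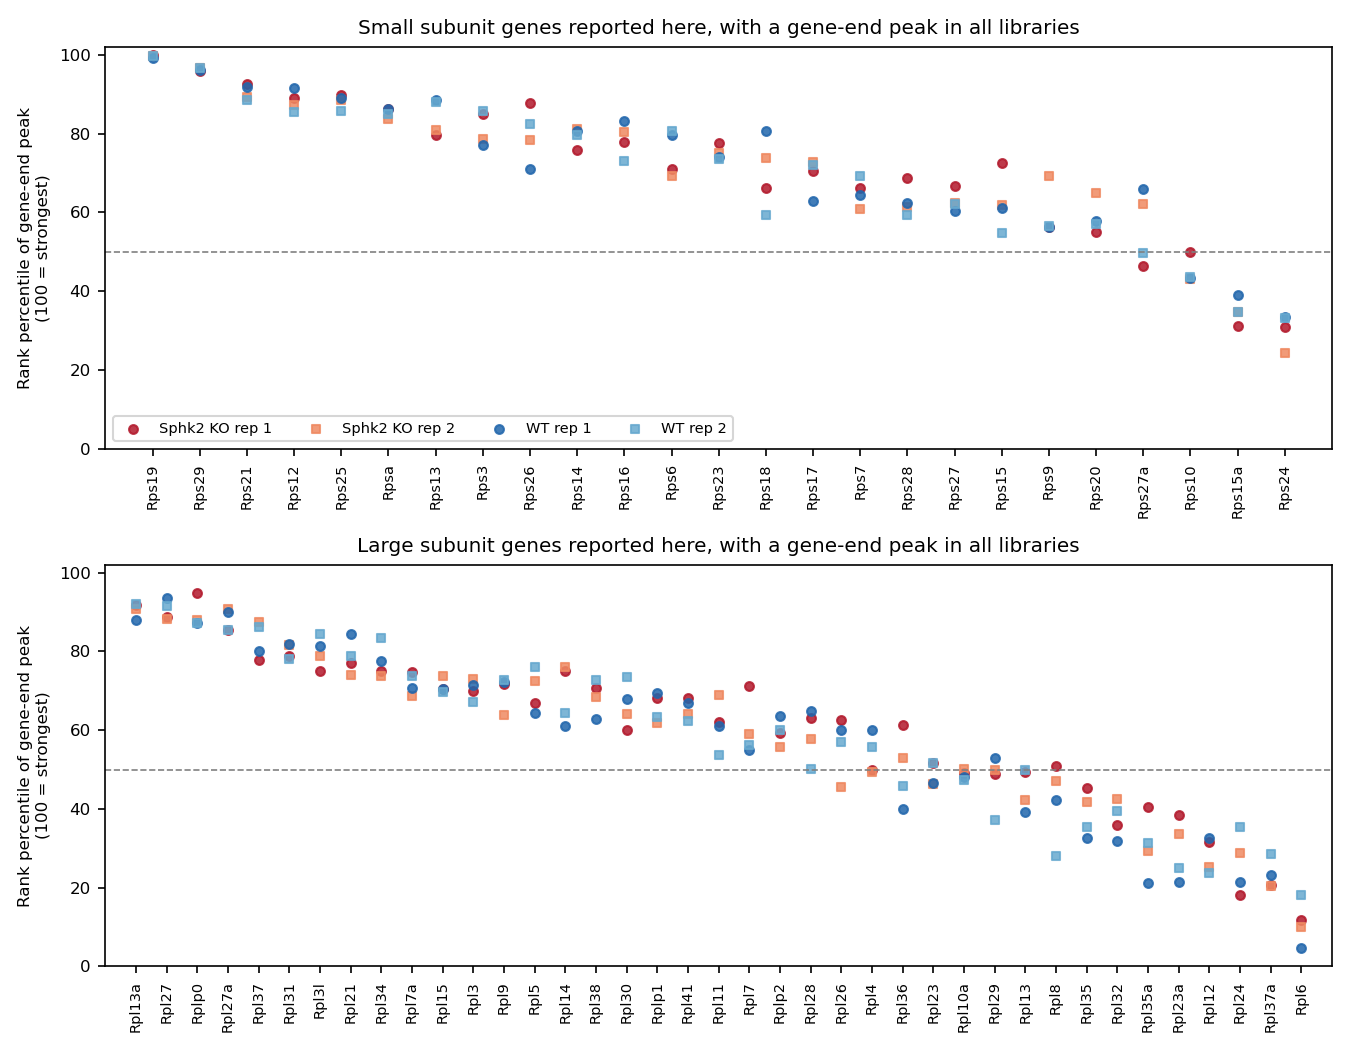
Rank percentile of the strongest gene-end peak by −log10 q (y axis, 100 the strongest among 8904 genes) for the small subunit genes (upper panel) and large subunit genes (lower panel) reported here that had such a peak in all libraries, 1 point a library, genes ordered by their mean. Gene means run from 99.7 at Rps19 to 11.1 at Rpl6, the 4 points of a gene span a median of 9.15 and at most 22.8 percentile points (Rpl8), and the dashed line marks 50.

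Mean widths over the 4 libraries ran from 471 bp at Rpl23a to 1902.75 bp at Rpl3l. The widest peaks belonged to Rpl3l, with 1878 and 1756 bp in Sphk2 KO and 1874 and 2103 bp in WT libraries, and Rpl7, with 1771 and 1935 bp in Sphk2 KO and 1750 and 1944 bp in WT libraries. Both of these peaks were shared with a neighbouring gene, Msrb1 for Rpl3l and Rdh10, a retinol dehydrogenase gene, for Rpl7. Rpl38, Rpl37a and Rpl11, the last an inhibitor of Mdm2 when free of the ribosome, came next, with mean widths of 1179, 1171 and 1159.5 bp. By mean width the narrowest peak was at Rpl23a, with 362 and 646 bp in Sphk2 KO and 348 and 528 bp in WT libraries. Rpl27, Rps10, Rpl12 and Rpl13a had mean widths of 541.75, 580.5, 604.25 and 604.75 bp. By −log10 q, Rpl13a thus had a narrow peak of high rank and Rpl37a a wide one of low rank.

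By −log10 q the genotypes were ranked much alike over the ribosomal protein genes. The difference in mean percentile, Sphk2 KO minus WT, had a median of 0.38 over the 68 genes, with quartiles of −3.21 and 3.38 and a range from −9.98 to 14.2. Over all 8904 genes the median was 0.087, with quartiles of −3.51 and 3.78. Percentiles of the genotypes did not overlap in 26 of 68 genes (38.2%), 13 higher and 13 lower in Sphk2 KO. The background was 40.1% of all ranked genes, 20.9% higher and 19.2% lower, so the share among ribosomal protein genes was near it. At annotated starts the genotypes did not overlap in 20 of 53 genes (37.7%), 10 higher and 10 lower in Sphk2 KO, against 39.5% of all genes ranked there, 20.3% higher and 19.2% lower. Spearman's rho over the 68 genes, which share libraries and depth within a pair, was 0.939 between the Sphk2 KO libraries, 0.944 between the WT libraries and 0.922 to 0.942 between libraries of unlike genotype.

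Ranked by fold enrichment, the ribosomal protein genes stood somewhat higher in Sphk2 KO libraries. Their median percentiles were 78.3 and 83.8 in Sphk2 KO and 72.2 and 77.0 in WT libraries. The nearest libraries of unlike genotype thus lay closer together than the libraries within either genotype. The difference in mean percentile had a median of 2.32 over the 68 genes, with quartiles of −1.402 and 8.0, against a median of 0.37 and quartiles of −5.02 and 5.36 over all 8904 genes. It was above 0 in 41 of the 68 genes (60.3%), against 52.3% of all genes. Some cell type markers also had ranks by −log10 q that did not overlap between the genotypes. Of the 7 ranked myeloid markers, 4 (57.1%) were higher and 0 lower in Sphk2 KO without overlap. The shares over all 8904 ranked genes were 20.9% higher and 19.2% lower. The largest difference among the myeloid markers was 29.6, at S100a9, which encodes a calcium-binding alarmin. Both ranked T cell or EL4 markers were higher without overlap, with differences of 5.19 at Cd3d, a T cell receptor chain, and 10.3 at Cd5, a T cell surface receptor. Klf1, the ranked erythroid marker, was lower without overlap, with a difference of −1.48. The part of these in the ribosomal protein results was not tested.

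**Figure D3:**
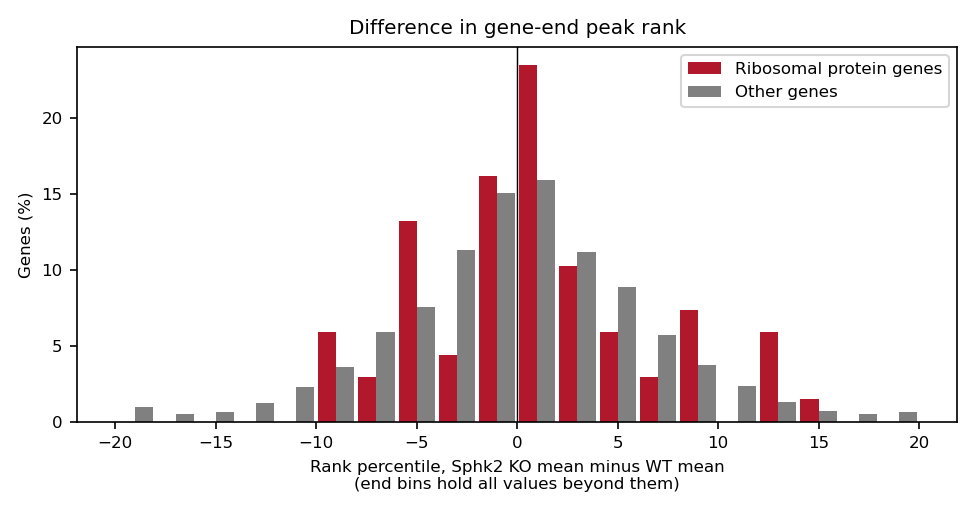
Share of genes in percent (y axis) by difference in gene-end rank percentile, Sphk2 KO mean minus WT mean (x axis, bins of 2 percentile points), for 68 ribosomal protein genes and for the other ranked genes. Both distributions centre near 0, and no ribosomal protein gene lies below −9.98 or above 14.2.

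Of the genes whose percentiles did not overlap, those with the largest positive differences included Rpl36, Rpl8, Rpl23a and Rpl14. Rpl36, a large subunit protein, ranked at 61.4 and 52.9 in Sphk2 KO and 40.1 and 45.8 in WT libraries, a difference of 14.2. The ranked Rpl36 peak, the stronger of 2 at its gene ends in each library, was shared with an end of Micos13. Rpl8, close to the peptidyl transferase centre, ranked at 50.8 and 47.2 in Sphk2 KO and 42.2 and 28.0 in WT libraries, a difference of 13.9. For Rpl36 and Rpl8 the gap between the groups was smaller than the spread within 1 of them.

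Rpl23a and Rpl14 were steadier within a genotype. Rpl23a ranked at 38.5 and 33.6 in Sphk2 KO and 21.3 and 24.98 in WT libraries, a difference of 12.9. Rpl14, a large subunit protein whose promoter is printed above, ranked at 75.04 and 76.0 in Sphk2 KO and 61.1 and 64.5 in WT libraries, a difference of 12.8. Its fold enrichment was 11.3 and 14.6 in Sphk2 KO and 11.1 and 10.9 in WT libraries.

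The largest negative differences were at Rps6, Rpl30, Rpl4, Rps13 and Rpl21. Rps6, the small subunit protein phosphorylated by S6 kinases downstream of mTOR, ranked at 71.1 and 69.2 in Sphk2 KO and 79.7 and 80.6 in WT libraries, a difference of −9.98. Its fold enrichment was 13.0 and 13.7 in Sphk2 KO and 15.5 and 15.6 in WT libraries. Rps13, of the small subunit, ranked at 79.7 and 80.9 in Sphk2 KO and 88.6 and 88.1 in WT libraries, a difference of −8.04. In both genes the gap between the groups was several times the spread within them.

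Rpl30, at a bridge between the subunits, ranked at 60.0 and 64.1 in Sphk2 KO and 68.0 and 73.5 in WT libraries, a difference of −8.69. Rpl21, of the large subunit, ranked at 77.0 and 73.9 in Sphk2 KO and 84.5 and 78.9 in WT libraries, a difference of −6.24. Rpl4, which lines the peptide tunnel, ranked at 49.9 and 49.3 in Sphk2 KO and 60.1 and 55.8 in WT libraries, a difference of −8.37. The Rpl4 value came from a peak beyond the far end of the gene, shared with Snapc5, which encodes a subunit of the complex that activates small nuclear RNA genes. At the annotated start of Rpl4 the order turned round: among the 7509 genes with start-site peaks the percentile was 45.6 and 31.1 in Sphk2 KO and 22.1 and 22.7 in WT libraries, a difference of 16.0.

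Rpl18, which encodes a large subunit protein and overlaps Sphk2, had an additional peak and a start-site peak of lower fold enrichment in the Sphk2 KO libraries. The listed gene spans chr7:45715467-45720835 on the plus strand, with its annotated start at 45718071, and Sphk2 spans chr7:45709463-45718002 on the minus strand. The listed genes overlap by 2536 bp, and the outer annotated starts of Rpl18 and Sphk2 point away from each other. Sphk2 has a second annotated start at 45715207, near the outer end of the listed Rpl18 gene. Which part of Sphk2 the KO allele lacks was not analysed here, since the peak lists do not show a deletion.

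In all 4 libraries a peak covered the Rpl18 start. It spanned 45717303 to 45718272 and 45717553 to 45718352 in Sphk2 KO replicates 1 and 2, and 45717583 to 45718219 and 45717603 to 45718352 in WT replicates 1 and 2. The summit lay at −42 and −41 bp from the start in Sphk2 KO and at −42 and −44 bp in WT libraries, nearly the same place. A second peak, which no WT list held, covered the second Sphk2 start in both Sphk2 KO libraries. It spanned 45715096 to 45716358 (1263 bp, fold enrichment 4.84, −log10 q 26.4) in replicate 1 and 45715043 to 45716683 (1641 bp, 4.57, 42.2) in replicate 2. Its summit differed between them, at −2022 and −2753 bp from the Rpl18 start, and this second peak is what made Rpl18 the 1 gene called at a gene end in Sphk2 KO alone.

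**Figure D4:**
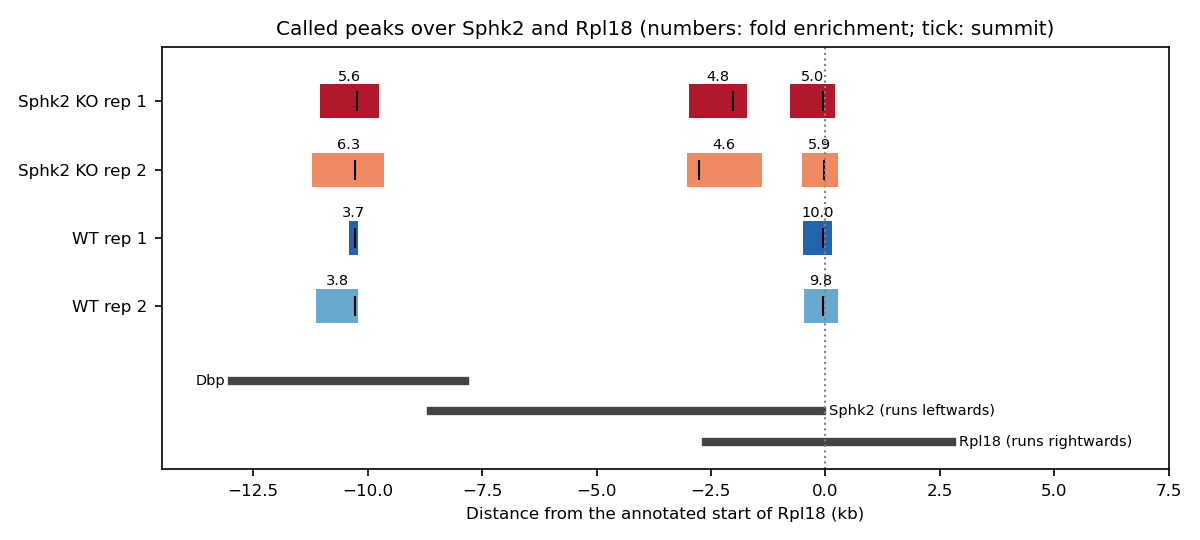
Called peaks in each library over Sphk2 and Rpl18 by distance from the annotated Rpl18 start in kb (x axis), Sphk2 KO libraries above WT libraries, with the fold enrichment above each peak, a tick at its summit and the listed genes as grey bars. Both Sphk2 KO libraries have a peak between −3028 and −1388 bp, which neither WT library has, and all 4 have the start-site peak.

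The start-site peak of Rpl18 stood less far above its surroundings in Sphk2 KO libraries, while its rank by pileup was higher there and its pileup per 1000000 fragments overlapped between the genotypes. Its fold enrichment was 5.002 and 5.91 in Sphk2 KO and 9.97 and 9.80 in WT libraries. In both Sphk2 KO libraries it was below that of all the other 52 ribosomal protein genes with a start-site peak, whereas 12 and 15 of the 52 lay below it in the WT libraries. Ranked among the 7509 genes by fold enrichment, it stood at 12.4 and 11.1 in Sphk2 KO and 48.9 and 53.9 in WT libraries. The means were 11.8 ± 0.942 in Sphk2 KO and 51.4 ± 3.54 in WT libraries (SD, n = 2 each), a difference of −39.7 (two-sided exact permutation p = 0.33, the smallest that 2 libraries against 2 can give). The next lowest difference among the genes was −12.3, at Rps24, and 6 of the 7509 genes (0.0799%) had a lower one than Rpl18.

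By −log10 q the same peak ranked at 39.6 and 46.8 in Sphk2 KO and 52.5 and 55.1 in WT libraries, a difference of −10.6 (exact permutation p = 0.33). That was the lowest of the 53 genes, just below Rps6 with −10.3, and 4.81% of all genes had a lower one. By pileup, the number of fragments stacked at the summit, the order was the other way, at 62.5 and 69.0 in Sphk2 KO and 53.9 and 55.8 in WT libraries, a difference of 10.8 (exact permutation p = 0.33). Pileup per 1000000 fragments kept was 3.05 and 6.14 in Sphk2 KO and 2.86 and 3.43 in WT libraries, and the medians of the other 52 genes were 3.23 and 5.58 in Sphk2 KO, against 3.43 and 3.92 in WT libraries.

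The local background, taken as pileup over fold enrichment per 1000000 fragments, was 0.610 and 1.04 at Rpl18 in Sphk2 KO and 0.287 and 0.350 in WT libraries. The medians of the other 52 genes were 0.285 and 0.413 in Sphk2 KO and 0.268 and 0.321 in WT libraries. In each Sphk2 KO library 2 of the 52 had a higher background than Rpl18, against 19 and 20 in the WT libraries. The peak near Dbp, on the far side of Sphk2, had a fold enrichment of 5.57 and 6.30 in Sphk2 KO, against 3.67 and 3.76 in WT libraries. The cause of the higher background was not tested.

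**Figure D5:**
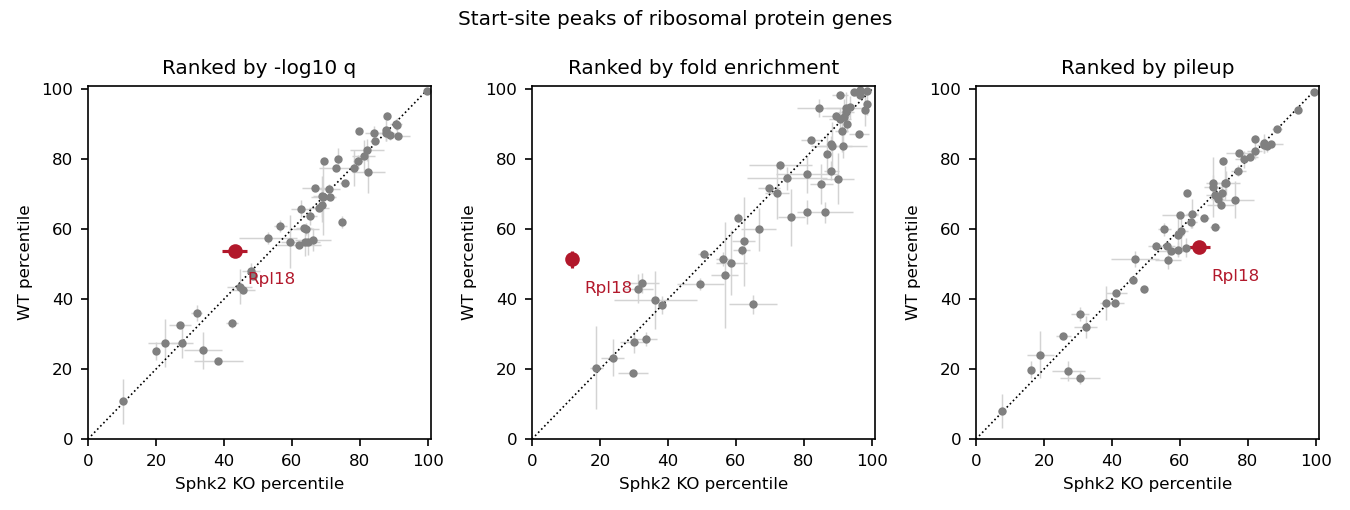
Rank percentile of the start-site peak among 7509 genes, mean of the Sphk2 KO libraries (x axis) against mean of the WT libraries (y axis), ranked by −log10 q, fold enrichment and pileup, 1 point for each of 53 ribosomal protein genes, lines spanning the 2 libraries of a group. Rpl18 (red) lies far above the diagonal for fold enrichment, with 11.8 in Sphk2 KO and 51.4 in WT, and below it for pileup.

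The rule gave 14 genes on chromosome 7, of which Rpl13a lay 580.7 kb from Sphk2. It ranked at 91.8 and 90.8 in Sphk2 KO and 88.1 and 92.2 in WT libraries. The difference in its mean percentile was 1.17, with overlap between the genotypes. Over the 13 chromosome 7 genes with a gene-end peak everywhere the median difference was 0.44, against 0.26 over the 55 elsewhere. Of the 13, 0 were higher and 3 (23.1%) lower in Sphk2 KO without overlap. Of the 55, 13 (23.6%) were higher and 10 (18.2%) lower. The shares over all 8904 ranked genes were 20.9% higher and 19.2% lower.

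Genes that serve the ribosome in other ways were given the same measures for comparison. All 19 genes of elongation factors and other TOP mRNAs had a gene-end peak in all libraries, against 43.1% of all genes. The 19 genes had median percentiles of 67.8 and 70.5 in Sphk2 KO and 67.2 and 71.5 in WT libraries. By fold enrichment their medians were 61.9 and 57.1 in Sphk2 KO and 61.5 and 62.6 in WT libraries, below those of the ribosomal protein genes. Genotypes did not overlap in 5 of the 19 (26.3%), 3 higher and 2 lower in Sphk2 KO, against 40.1% of all ranked genes. Eef1a1, the elongation factor that delivers aminoacyl-tRNA, ranked at 55.9 and 70.9 in Sphk2 KO and 45.7 and 45.5 in WT libraries.

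Of 78 mitochondrial ribosomal protein genes, 65 and 74 had a gene-end peak in Sphk2 KO and 73 and 74 in WT libraries. In all libraries 65 of the 78 had one, against 43.1% of all genes. The median percentile of these 65 was 49.8 and 46.2 in Sphk2 KO and 46.4 and 51.8 in WT libraries, below that of the cytosolic genes. Genotypes did not overlap in 24 of the 65 (36.9%), against 40.1% of all ranked genes. Of the 65, 7 (10.8%) were higher and 17 (26.2%) lower in Sphk2 KO, against 20.9% and 19.2% of all ranked genes, and the median difference was −1.08. The low count in Sphk2 KO replicate 1 stood in the library with the fewest fragments.

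Of 21 ribosome biogenesis and RNA polymerase I genes, 19 had a gene-end peak in all libraries, against 43.1% of all genes. Of the 19, 3 were higher and 1 lower in Sphk2 KO without overlap (21.1%, against 40.1% of all ranked genes). Of 14 regulators of ribosomal protein synthesis, 12 had one in all libraries, against 43.1% of all genes, with 4 higher and 2 lower without overlap (50%, against 40.1%). Eif4e, the cap-binding protein released by mTOR signalling, ranked at 81.6 and 71.0 in Sphk2 KO and 61.4 and 63.1 in WT libraries. Myc, a transcription factor that drives ribosome production, had a gene-end peak with a −log10 q of 4.66 in Sphk2 KO replicate 2 and none in replicate 1, against 6.997 and 11.4 in the WT libraries.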

How the data were processed

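Peak lists from ATAC-seq of 2 Sphk2 KO and 2 WT libraries were analysed. The submitters' processing notes name cutadapt, BWA, MACS2 and mm10. Per the file headers, MACS2 2.1.1.20160309 called peaks in paired-end mode for each library alone (no control, q-value 0.05, genome size 1.87e+09, local background 10000 bp). Duplicate fragments at a position were dropped, per the file headers; use of a Tn5 shift is not given in the sources. The deposited pileup is a coverage signal not scaled to depth. The deposited fold enrichment is a ratio of pileup to local background, and the deposited −log10 of the p-value and q-value is each peak's own score in its library. These scores depend on depth, so genotypes were compared by rank, and a score printed for a peak describes that peak in its own library.

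Gene positions were those of RefSeq on GRCm38.p6, and strand and start sites from its promoter table, which held 57 of the 77 genes. A peak counted when it lay within 1000 bp of a site, and the one with the highest −log10 q was taken. Genes with a peak in all 4 libraries were ranked together, and percentiles were averaged within a genotype. A planned rank of Rpl18 by its gene-end peak could not be had, because the WT lists have no such peak, so its start-site peak was used. For single values a two-sided exact permutation test was run over libraries, and p-values measure only the spread between libraries. Genes named in the text were Rpl18 and Sphk2, those lacking a gene-end peak in any library, paralogues, the 5 highest and lowest by rank and by width, the 5 largest differences each way without overlap, and chromosome 7 genes within 10 Mb of Sphk2. A few genes that fall under this rule are not reported here, in the text or by name in the figures. The other genes named (the P stalk genes, Rpsa, and examples from the comparison lists) were chosen after their values were seen. The genes and lists were chosen with earlier results of these data known. The scripts were checked on altered copies of the real lists. For some randomly picked genes the gene-end peaks were removed from the Sphk2 KO lists, and for others their −log10 q was raised there. The scripts called the former in WT alone and ranked nearly all of the latter higher in Sphk2 KO. That outcome follows largely from the changes made, so it checks the code and not the results. Python 3.11.15, pandas 2.3.3, numpy 2.4.6, scipy 1.17.1 and matplotlib 3.10.9 were used.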

Additional observations from a re-analysis of the deposited data

How the results depend on the processing

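Of 85 recomputed values, 68 stayed within the spread between libraries or within the limit for counts (1.5 times), or, for the Rpl18 difference, kept their direction, and 17 did not. The gap in the mean number of genes with a gene-end peak, Sphk2 KO minus WT, was −0.5, and became 1 at 500 bp, 1.5 at 2000 bp and 1 when the summit had to lie within 1000 bp. It ran from −1 to 0 when a library was left out. The count of genes with a gene-end peak in WT libraries alone, 1, became 0 in each of those settings, at annotated starts and over genes with flanks, and was 1 to 2 with a library left out (2 without WT replicate 2). The count in Sphk2 KO alone, also 1, became 0 at annotated starts and over genes with flanks. Those searches, chosen after seeing the data, include peaks inside the gene. The median rank difference of 0.38 became 2.32 by fold enrichment, and was 0.39 to 0.74 with a library left out. The median width difference of −68.25 bp ran from −132.25 to −4.25 bp with a library left out, the smallest without Sphk2 KO replicate 1. The Rpl18 difference of −10.6 was −39.7 by fold enrichment, turned to 10.8 by pileup, and ran from −14.1 to −6.48 with a library left out. The additional Rpl18 peak, in 2 Sphk2 KO libraries, was counted in 1 when its summit had to lie inside both listed genes (chosen after seeing the data), in 0 with 2000 bp around the Rpl18 start, a window that reaches it, and in 1 to 2 with a library left out.

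Same-numbered libraries showed no shared deviation in rank: their deviations from the mean of their genotype had a correlation of −0.00532 over 8904 genes. This does not tell whether same-numbered libraries were collected or processed together. With the replicate block the median rank difference was 0.26, the gap in gene number −0.5 and the Rpl18 difference −10.6, with an exact permutation p of 0.5. A missing call does not show closed chromatin, and with 2 libraries a genotype no p under 0.33 can be had. The cause of these changes was not tested, apart from the smaller number of libraries and the different windows named.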
